A study of Mus musculus with 6 samples.

Results

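The 9 genes described here are used to tell states of macrophages apart: Arg1, Nos2, Mrc1, Cd163, Retnla, Il10, Spp1, Ccr2 and Gpnmb. They were chosen by name, each as the row of the expression table that carries its symbol, and make up 9 of the 23473 rows with RefSeq gene names. All 9 passed the filter on low values and were among the 12320 rows tested. The libraries are bulk RNA-seq of tumor endothelial cells (TECs) from Lewis lung carcinoma (LLC) tumors, a mouse lung cancer line that was inoculated under the skin of C57BL/6 mice aged 8 weeks. In number, 3 mice carried endothelial Notch activation (NICeCA, written NICD in the sample titles) and 3 were controls (Ctrl), whose genotype is labelled wild type. In NICeCA mice, tamoxifen given for 5 days turns on a Cre recombinase driven by the promoter of Cdh5, an endothelial cadherin, which removes a stop cassette in front of the Notch1 intracellular domain at the Rosa26 locus. The sources used here do not say whether the Ctrl mice also received tamoxifen. The cells were captured from digested tumors on beads carrying an antibody to CD31, and the labels give a purity of more than 90%. The methods place collection at day 14 after inoculation, whereas the labels say that the days differed without giving the day of each tumor, so that day and group cannot be told apart.

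Macrophages change their program with the signals of their tissue. Bacterial products and interferon gamma induce Nos2, the inducible nitric oxide synthase, and other genes of the so-called classical state, whereas interleukin 4 and interleukin 13 induce Arg1, Retnla and Mrc1 in mice, the so-called alternative state. Arginase 1 and inducible nitric oxide synthase use the same amino acid, arginine, for different ends, urea and ornithine in one case and nitric oxide and citrulline in the other. Tumor macrophages often hold genes of both states, and in tumors many of them descend from blood monocytes that enter through the chemokine receptor CCR2.

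The beads did not yield endothelial RNA alone. A list of 7 core macrophage markers (Adgre1, Csf1r, C1qa, C1qb, C1qc, Ms4a7 and Mertk) summed to between 2345 and 3566 RPKM in the Ctrl libraries and between 1291 and 2892 RPKM in the NICeCA libraries. RPKM are reads scaled to the length of the gene model and to the size of the library, so that levels of different genes can be set side by side. A list of 15 endothelial markers summed to between 264 and 672 RPKM in Ctrl and between 572 and 744 RPKM in NICeCA libraries. Most of the core macrophage sum came from C1qa, C1qb and C1qc. Csf1r, the highest of the other core markers, was at 115 to 159 RPKM in Ctrl and 91.6 to 143 RPKM in NICeCA libraries. The order of these sums therefore does not give the share of RNA from each cell type. C1qa, a subunit of complement C1q made by macrophages, was at 746 to 1112 RPKM in Ctrl libraries, and Pecam1, which encodes CD31, at 47.5 to 135 RPKM. In NICeCA libraries C1qa was at 375 to 891 RPKM and Pecam1 at 125 to 154 RPKM. None of the 7 core macrophage markers differed between the groups at an adjusted p under 0.05, and their median log2 fold change was -0.30. They are part of a list of 17 macrophage markers with a median of 0.07, in which Cd14, Cd68, Itgam and Pf4 were called higher (log2 fold changes 0.97, 0.75, 0.77 and 2.98) and Cd74 lower (-1.15). Of the 15 endothelial markers 2 were called higher, and the median of the 15 was 0.66. Of 7 tested fibroblast markers 3 were called lower and 1 higher (summed 324 to 561 RPKM in Ctrl, 160 to 322 RPKM in NICeCA libraries), and of 7 tested pericyte markers 2 were called higher (52.8 to 97.7 against 116 to 180 RPKM). Of 9 tested neutrophil markers 8 were called higher, and the 13 in the table summed to between 83.4 and 251 RPKM in Ctrl and between 495 and 1597 RPKM in NICeCA libraries. Some genes described below, Arg1 and Il10 among them, can be expressed by neutrophils as well, and the part of these shifts in the levels of the 9 genes was not tested. In bulk RNA, fewer cells of a type and less RNA per cell cannot be told apart.

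**Figure D1:**
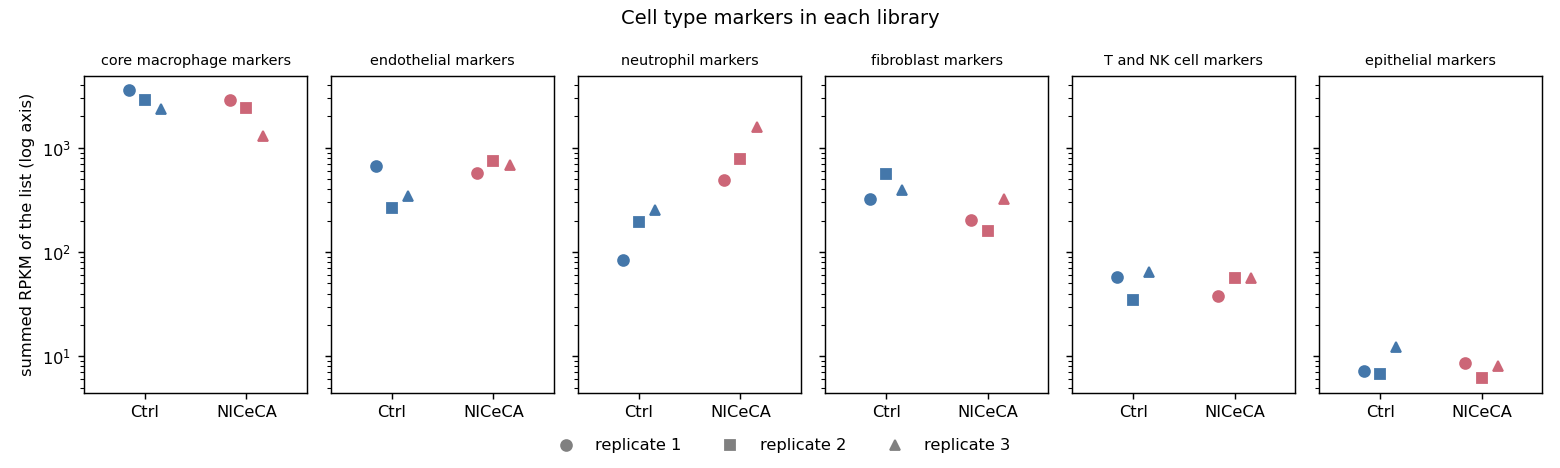
Summed RPKM of 6 lists of cell type markers in each library (log axis), with symbols for the replicate numbers of Ctrl (blue) and NICeCA (red). The core macrophage markers lie between 1291 and 3566 RPKM in the 6 libraries, above the endothelial markers (264 to 744 RPKM) in every library, and the neutrophil markers are higher in each NICeCA library than in each Ctrl library. Most of the core macrophage sum is C1qa, C1qb and C1qc.

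Expression of Arg1, Nos2, Il10, Spp1 and Gpnmb was higher in NICeCA than in Ctrl libraries, and none of the 9 genes was lower. Of the 9, 5 passed an adjusted p under 0.05 (limma on log2(RPKM + 1), Benjamini-Hochberg adjustment over all tested rows), where 5.88% of the 12320 tested rows were called higher and 7.68% lower. The other 4 were Mrc1, Cd163, Retnla and Ccr2, whose log2 fold changes were positive but did not pass. In 6 of the 9 genes, the 5 called and Mrc1, every NICeCA library lay above every Ctrl library, as it did in 16.5% of all tested rows. The median log2 fold change of the 9 genes was 1.21, beside -0.05 over all tested rows. The 9 genes and the lists below were chosen with earlier results of these data known. Counts and medians set beside all tested rows are therefore a description. Calls were lost without NICeCA replicate 1 or 2, in fits where few rows of the whole table passed. Without NICeCA replicate 1, Gpnmb alone of the 9 was called (1 of 9, with 0.727% of tested rows called higher). Without NICeCA replicate 2, 0 of 9 were (0.138% of tested rows). In the fit without NICeCA replicate 2, the 5 genes had log2 fold changes between 0.95 and 2.39 and unadjusted p from 0.00024 to 0.00088 in limma. For Arg1 the unadjusted limma p was 0.00036 in that fit, where it was not called. It was 0.00047 without Ctrl replicate 1, where Arg1 was called.

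**Figure D2:**
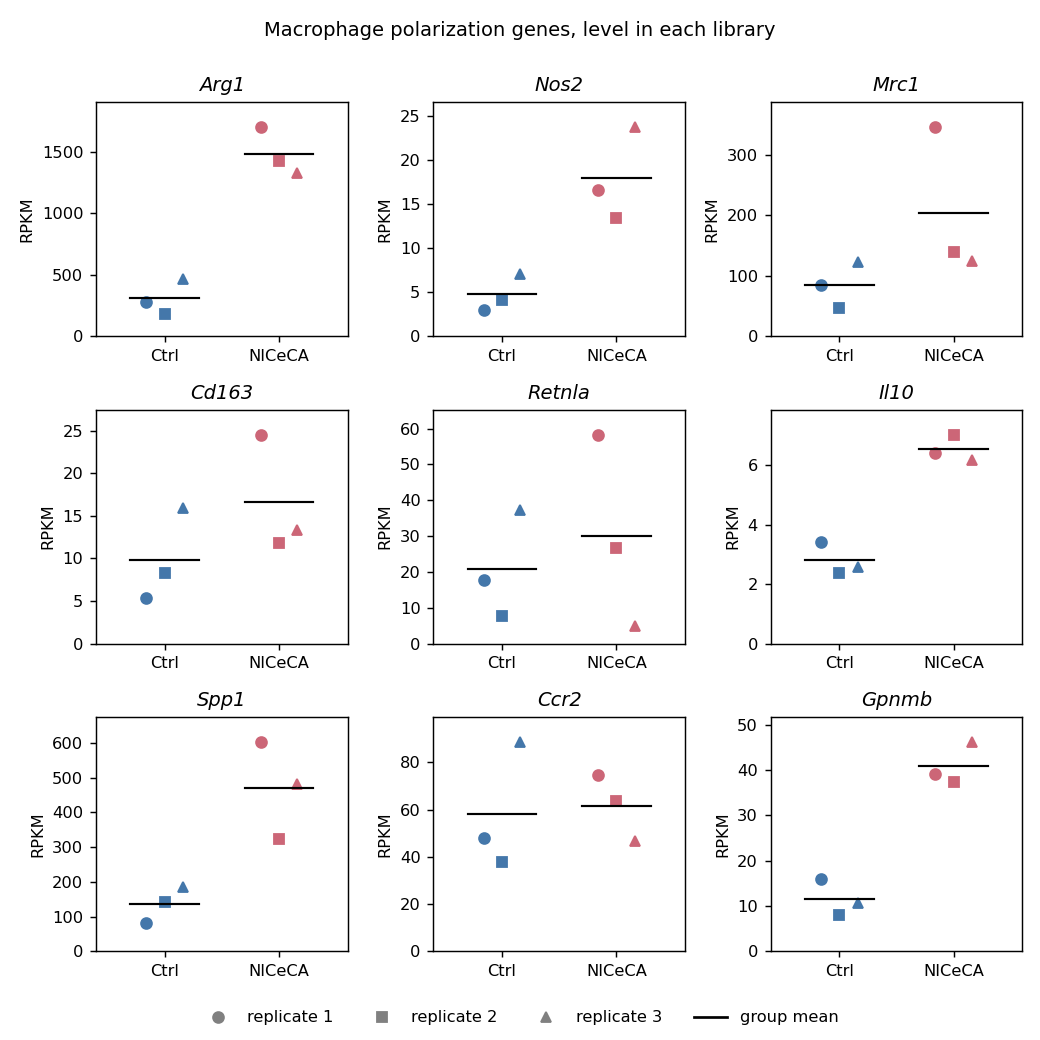
RPKM of the 9 genes in each library, on linear axes from 0 that differ between panels, with symbols for the replicate numbers and a line at the mean of each group of 3. Arg1, Nos2, Il10, Spp1 and Gpnmb have all 3 NICeCA libraries well above all 3 Ctrl libraries, whereas the groups overlap in Cd163, Retnla and Ccr2.

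**Figure D3:**
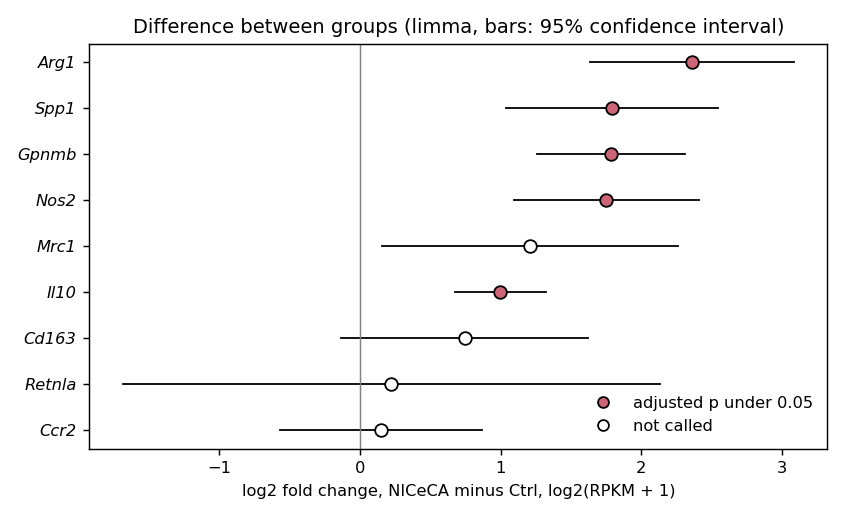
Log2 fold change of each gene, NICeCA minus Ctrl, with its 95% confidence interval from limma (n = 3 libraries a group). The 5 filled points, from 1.00 for Il10 to 2.36 for Arg1, passed an adjusted p under 0.05, and the interval of Retnla is the widest, from -1.69 to 2.13.

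Arg1 (chromosome 10, 24915207 to 24927470, minus strand, GRCm38) showed the largest change of the 9. It encodes arginase 1, which splits arginine into urea and ornithine. The Ctrl mice had 276, 182 and 468 RPKM and the NICeCA mice 1704, 1425 and 1331 RPKM. The lowest NICeCA library thus held more than the highest Ctrl library, and Ctrl replicate 3 was the highest of its group. The means were 309 ± 145 and 1487 ± 194 RPKM (SD, n = 3 in both), and the log2 difference came to 2.36 ± 0.31 (SE, limma adjusted p = 0.011). In NICeCA libraries the mean of Arg1 exceeded that of 99.8% of the tested rows, compared with 98.5% in Ctrl libraries, and its row held 10706 to 91856 reads per library.

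Nos2 (chromosome 11, 78920859 to 78960124) rose as well, at a level far below that of Arg1. In Ctrl tumors it stood at 3.0, 4.10 and 7.07 RPKM, and in NICeCA tumors at 16.6, 13.5 and 23.8 RPKM. The groups did not overlap, and in each group replicate 3 was the highest. The log2 difference came to 1.75 ± 0.28 (SE, limma adjusted p = 0.019), from 4.72 ± 2.10 to 18.0 ± 5.27 RPKM (SD, n = 3). Because both enzymes draw on arginine, the ratio of their RPKM was computed after these values had been seen. It was 91.9, 44.4 and 66.1 in Ctrl and 102, 106 and 56.0 in NICeCA libraries, and the groups overlapped (exact permutation test on log2 ratios, two-sided p = 0.5, n = 3 each).

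Of 10 tested genes of a list on arginine and nitric oxide, 2 were called higher and none lower, with a median log2 fold change of 0.34. Arg2, the mitochondrial arginase, rose from 3.70 ± 1.75 to 21.1 ± 3.08 RPKM (SD, n = 3), by 2.29 ± 0.24 on the log2 scale (SE, limma adjusted p = 0.0092). Gch1, whose product starts the synthesis of a cofactor of nitric oxide synthases, rose with a log2 fold change of 0.63 (limma adjusted p = 0.047). Of the arginine transporters, Slc7a2 had 4.19 ± 3.42 and 8.61 ± 4.61 RPKM (log2 fold change 1.04, limma adjusted p = 0.20), and Slc7a1 had 7.31 ± 1.49 and 4.63 ± 0.72 RPKM (-0.55, 0.063). Odc1, which turns ornithine into polyamines, was at 79.8 ± 9.72 and 98.5 ± 6.57 RPKM (log2 fold change 0.31, limma adjusted p = 0.15). The endothelial synthase Nos3 was at 6.46 ± 2.78 and 9.65 ± 0.60 RPKM (0.57, 0.12), and Nos1, the neuronal one, was below the filter at up to 0.053 RPKM.

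Spp1 (chromosome 5, 104435111 to 104441053) encodes osteopontin, a secreted glycoprotein that binds integrins and CD44 and marks a common state of tumor macrophages. The 3 Ctrl values were 82.7, 143 and 186 RPKM, the 3 NICeCA values 601, 323 and 482 RPKM. Each NICeCA library exceeded each Ctrl library, and replicate 1 was the lowest of the Ctrl and the highest of the NICeCA group. The log2 difference came to 1.79 ± 0.33 (SE, limma adjusted p = 0.023), and with no filter on low values it was not called (0.056).

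Among the receptors of osteopontin, none of 8 tested genes was called in either direction (median log2 fold change -0.04). Cd44 was at 58.3 ± 21.3 and 72.5 ± 8.05 RPKM (log2 fold change 0.36, limma adjusted p = 0.30). Itgb3, the beta chain of the vitronectin receptor, had 10.4 ± 4.05 and 17.3 ± 0.40 RPKM (0.75, 0.089), and its partner Itgav had 19.0 ± 4.83 and 17.0 ± 1.85 RPKM (-0.13, 0.62). The 95% intervals, not adjusted for the number of genes, reached from -0.18 to 0.90 for Cd44 and from 0.14 to 1.36 for Itgb3, and the Itgb3 groups did not overlap.

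Gpnmb (chromosome 6, 49036518 to 49058182) encodes a transmembrane glycoprotein of lysosomes and the cell surface that is abundant in macrophages loaded with lipid or debris. The Ctrl mice had 16.1, 7.92 and 10.6 RPKM and the NICeCA mice 39.2, 37.4 and 46.1 RPKM. The groups did not overlap, and the log2 difference came to 1.79 ± 0.23 (SE, limma adjusted p = 0.011). Its spread within groups, a standard deviation of 0.35 on log2(RPKM + 1), was larger than that of 85.3% of the tested rows. With 11.5 ± 4.14 and 40.9 ± 4.62 RPKM (SD, n = 3), it moved from above 61.1% of tested rows in Ctrl to above 89.1% in NICeCA libraries.

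A list of genes that share lysosomal regulation with Gpnmb held 7 tested genes, of which 4 were called higher and none lower (median log2 fold change 1.61). Ctsk, the collagen-degrading cathepsin K, rose from 8.99 ± 5.35 to 77.9 ± 28.1 RPKM (SD, n = 3), by 3.10 ± 0.47 on the log2 scale (SE, limma adjusted p = 0.016). Atp6v0d2, a subunit of the lysosomal proton pump, Tfec, a transcription factor of macrophages, and Acp5, tartrate-resistant acid phosphatase, had log2 fold changes of 1.89, 1.68 and 1.61 (limma adjusted p = 0.018, 0.021 and 0.025). The 3 other transcription factors of this family, Mitf, Tfeb and Tfe3, had log2 fold changes of -0.07, 0.28 and -0.13 and did not pass (limma adjusted p = 0.83, 0.18 and 0.50). Pmel, the closest relative of Gpnmb, was not tested, at 0.45 to 0.99 RPKM.

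The promoter table from RefSeq (GRCm38.p6, 250 bases before to 50 after a start) lists Mrc1, Cd163, Retnla, Spp1, Ccr2 and Gpnmb, with 2 starts for Spp1. In all, 5 motifs were searched on both strands: GTGGGAA (RBPJ, the DNA-binding partner of the Notch intracellular domain), CACGTG (the E-box of MITF, TFE factors and MYC), its variant CATGTG (bound by MITF as well), TGANTCA (AP-1) and GAGGAA (the core of PU.1 sites). The RBPJ motif and the E-box were in none of these promoters, and they are in 6.38% and 7.15% of the 32851 promoters in the table. The PU.1 core, in 28.3% of all promoters, was in those of Mrc1 and Retnla and in that of 1 of the 2 Spp1 starts. The E-box variant, in 14.2%, was in those of Mrc1 and Retnla. The AP-1 motif, in 7.81%, was in that of Gpnmb. The stretches that hold the matches are shown for Spp1 and Gpnmb, which rose, and for Mrc1, where 4 of its 5 matches lie in the stretch and a PU.1 core at position -35 on the minus strand does not, with the matched letters in capitals and all 3 on the plus strand.
Spp1, chr5:104434961-104435040, positions -150 to -71 from the start: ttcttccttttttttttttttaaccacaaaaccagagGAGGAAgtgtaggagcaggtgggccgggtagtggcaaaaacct
Gpnmb, chr6:49036518-49036547, the first 30 bases of the transcript: ggggcaagTGACTCAtgagcacgagttgtt
Mrc1, chr2:14229214-14229333, positions -200 to -81 from the start: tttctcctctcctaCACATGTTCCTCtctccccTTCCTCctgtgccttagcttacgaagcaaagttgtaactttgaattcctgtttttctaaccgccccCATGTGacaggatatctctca
In Mrc1, the first stretch in capitals joins the E-box variant to the PU.1 core and the next is the PU.1 core, both read on the other strand. A match of letters is a description of the window and does not say that a factor was bound.

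Il10 (chromosome 1, 131019845 to 131024970) encodes interleukin 10, a cytokine that restrains inflammatory genes of macrophages. It was the lowest of the 9 genes and the one with the smallest spread. In Ctrl tumors it stood at 3.43, 2.38 and 2.57 RPKM, and in NICeCA tumors at 6.42, 7.03 and 6.19 RPKM, behind which stood 124 to 324 reads per library. No Ctrl library came near the lowest NICeCA library, and the log2 difference came to 1.00 ± 0.14 (SE, limma adjusted p = 0.012). On log2(RPKM + 1), a change at this level is understated, and with a pseudocount of 0.1 the log2 fold change was 1.21.

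Of 7 tested genes of the IL-10 receptor pathway, 2 were called higher and none lower, with a median of 0.03. Il10rb, the chain shared with other cytokine receptors, rose from 28.8 ± 6.14 to 46.9 ± 5.09 RPKM (SD, n = 3), by 0.70 on the log2 scale (limma adjusted p = 0.044). Il10ra, the chain that binds interleukin 10, was at 48.7 ± 13 and 39.4 ± 4.25 RPKM (-0.27, 0.36). Socs3, a feedback inhibitor induced by STAT3, rose with a log2 fold change of 0.59 (limma adjusted p = 0.038), while Stat3 itself was at 43.0 ± 7.57 and 43.4 ± 1.41 RPKM (0.03, 0.91). The calls of Il10rb and Socs3 were among those lost with the replicate number as a block.

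Mrc1 (chromosome 2, 14229414 to 14332023) encodes the mannose receptor CD206, an endocytic receptor that is also found on lymphatic and sinusoidal endothelium. The 3 Ctrl values were 84.4, 45.8 and 123 RPKM, the 3 NICeCA values 347, 139 and 125 RPKM. The groups did not overlap, but only narrowly, as Ctrl replicate 3 and NICeCA replicate 3 were nearly level and NICeCA replicate 1 stood far above the rest. The log2 fold change was 1.21 (95% interval 0.16 to 2.26, limma adjusted p = 0.10), and without NICeCA replicate 1 it was 0.74. The sum of 7 lymphatic endothelial markers was also higher in NICeCA libraries. It was 34.7, 47.2 and 71.7 RPKM in Ctrl and 134, 156 and 166 RPKM in NICeCA libraries. Within the NICeCA group the sum rose from replicate 1 to replicate 3, as did Pdpn at 112, 138 and 143 RPKM. Lyve1, at 17.1, 13.2 and 16.5 RPKM, and Mmrn1, at 1.34, 0.59 and 1.35 RPKM, did not follow this order. Mmrn1 and Reln, both below the filter, were higher in each NICeCA library than in each Ctrl library, whereas the groups overlapped in Lyve1 and Flt4. Most of the sum came from Pdpn, which is also made by other stromal cells. Of 3 tested markers, Pdpn was the 1 called higher (1.78). Prox1, the defining transcription factor of lymphatic endothelium, was at 0.012 to 0.081 RPKM in Ctrl and 0.086 to 0.267 RPKM in NICeCA libraries, and Ccl21a was at 0 in all 6. The part of lymphatic RNA in the level of Mrc1 was not tested. The span of Mrc1 also holds the row of Mir511, with which its reads cannot be separated here.

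Cd163 (chromosome 6, 124304651 to 124330527) encodes the receptor through which macrophages take up complexes of hemoglobin and haptoglobin. The Ctrl mice had 5.36, 8.28 and 16.0 RPKM and the NICeCA mice 24.5, 11.8 and 13.4 RPKM. Ctrl replicate 3 exceeded 2 of the NICeCA libraries, and the log2 fold change of 0.74 was not called (95% interval -0.13 to 1.62, limma adjusted p = 0.20).

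Among 9 tested genes for other scavenger and mannose receptors, 1 was called higher and none lower (median log2 fold change -0.04). Msr1, scavenger receptor A, rose from 49.6 ± 11.3 to 107 ± 19.6 RPKM (SD, n = 3), by 1.11 ± 0.20 on the log2 scale (SE, limma adjusted p = 0.023). Stab1 was at 74.4 ± 2.06 and 73.4 ± 16.2 RPKM (-0.04, 0.88). Mrc2, the relative of Mrc1 in fibroblasts, was at 2.29 ± 1.06 and 0.87 ± 0.33 RPKM (-0.78, 0.069).

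Retnla (chromosome 16, 48842552 to 48844461) encodes the secreted protein RELM alpha, a target of STAT6 downstream of interleukin 4. It varied most between mice of 1 group among the 9 genes. In Ctrl tumors it stood at 17.7, 7.64 and 37.2 RPKM, and in NICeCA tumors at 58.3, 26.6 and 4.98 RPKM. NICeCA replicate 1 was the highest and NICeCA replicate 3 the lowest of all 6 libraries, so that the Ctrl group lay within the NICeCA group. Its spread within groups, a standard deviation of 1.41 on log2(RPKM + 1), was larger than that of 99.9% of the tested rows. The log2 fold change of 0.22 had a 95% interval from -1.69 to 2.13 (limma adjusted p = 0.87). It was -0.51 without NICeCA replicate 1, -0.32 without Ctrl replicate 2 and 1.14 without NICeCA replicate 3, none of them called.

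The resistin family, to which Retnla belongs, had 1 other tested gene. Retnlg, a gene of neutrophils and bone marrow, went from 29.8 ± 12.7 to 123 ± 11 RPKM (SD, n = 3), by 2.10 ± 0.30 on the log2 scale (SE, limma adjusted p = 0.014). The 3 NICeCA libraries, at 112 to 134 RPKM, lay above the 16.1 to 41.4 RPKM of the Ctrl libraries. Retn was at up to 0.56 RPKM and Retnlb at up to 0.12 RPKM, both below the filter. Neighbouring paralogs of this kind can share reads, and the sources used here do not say how the counting treated such reads.

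Ccr2 (chromosome 9, 124102183 to 124109140) encodes the chemokine receptor through which inflammatory monocytes leave the bone marrow and enter tissue. The 3 Ctrl values were 47.8, 37.9 and 88.5 RPKM, the 3 NICeCA values 74.8, 63.5 and 46.5 RPKM. The highest library was Ctrl replicate 3, and the groups overlapped across most of their range. The log2 fold change was 0.15 (95% interval -0.57 to 0.87, limma adjusted p = 0.76). Its sign depended on the setting: it was -0.12 with quantile normalization, -0.10 without Ctrl replicate 2 and -0.00040 without NICeCA replicate 1, none of them called.

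The ligand genes Ccl2 and Ccl7 were higher in NICeCA libraries. Of the 4 genes listed, 2 were called higher and none lower (median log2 fold change 1.75). Ccl2, the chemokine MCP-1, rose from 114 ± 49.4 to 397 ± 67.7 RPKM (SD, n = 3), by 1.89 ± 0.34 on the log2 scale (SE, limma adjusted p = 0.022). Ccl7 rose from 65.4 ± 34.4 to 224 ± 20.9 RPKM (1.92, standard error 0.39, limma adjusted p = 0.029). Ccl12 had 19.1 ± 13.2 and 49.2 ± 8.38 RPKM without overlap (1.61, 0.080), and Ccl8 had 230 ± 99.7 and 316 ± 171 RPKM with overlap (0.41, 0.50). Ccl2 and Ccl7 were not called with quantile normalization or with no filter on low values. Whether the change of the ligands differed from that of the receptor was not tested.

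By level, Arg1 stood first in both groups and Il10 last. In Ctrl libraries the order of mean RPKM was Arg1, Spp1, Mrc1, Ccr2, Retnla, Gpnmb, Cd163, Nos2 and Il10. The ranges of neighbours overlapped everywhere in it except between Ccr2 (58.1 ± 26.8) and Retnla (20.8 ± 15.0). In NICeCA libraries Gpnmb (40.9 ± 4.62) preceded Retnla (30.0 ± 26.8), and Nos2 (18.0 ± 5.27) preceded Cd163 (16.6 ± 6.94), but the ranges of each of these pairs overlapped. Arg1 (1487 ± 194) was separated from Spp1 (469 ± 140), Mrc1 (203 ± 124) from Ccr2 (61.6 ± 14.2), Ccr2 from Gpnmb, and Cd163 from Il10 (6.55 ± 0.43). Spread within groups also differed among the genes. On log2(RPKM + 1) the standard deviation within groups was 0.16 for Il10 and 0.35 for Gpnmb, and between 0.46 and 0.76 for the other 6 genes apart from Retnla.

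Arg1, Nos2, Il10, Spp1 and Gpnmb were also higher in every NICeCA library when set against macrophage markers of the same library, with either of 2 marker lists, and Mrc1 with 1 of them. For each library the mean log2(RPKM + 1) of the 7 core markers was subtracted from that of the gene. This mean itself was 7.66, 7.20 and 7.18 in Ctrl and 7.55, 7.16 and 6.47 in NICeCA libraries, a difference of -0.29 with overlapping groups (exact permutation test, two-sided p = 0.4). Relative to it, Arg1 was higher in NICeCA libraries by 2.65, Spp1 by 2.08, Gpnmb by 2.08, Nos2 by 2.04, Mrc1 by 1.5 and Il10 by 1.29 on the log2 scale. In these 6 genes the groups did not overlap, as in 11.8% of all tested rows on this scale, and each had an exact permutation p of 0.1, the smallest that 3 libraries against 3 allow (adjusted over the 9 genes 0.15). For Cd163 (1.03), Retnla (0.51) and Ccr2 (0.44) the groups overlapped, with exact permutation p of 0.2, 0.7 and 0.4. Arg1 thus went from a level close to that of the markers (0.82 ± 0.76 above their mean, SD, n = 3) to 3.47 ± 0.38 above it. Il10 stayed furthest below, at -5.43 ± 0.08 in Ctrl and -4.15 ± 0.51 in NICeCA libraries. Against the whole list of 17 macrophage markers, 4 of which were called higher, the differences were smaller. They came to 2.17 for Arg1, 1.6 for Spp1, 1.6 for Gpnmb, 1.56 for Nos2 and 0.81 for Il10, and these 5 genes still had no overlap (4.97% of tested rows). For Mrc1 the difference was 1.02 and the groups overlapped (exact permutation p = 0.2), for Cd163 it was 0.55, for Retnla 0.03 and for Ccr2 -0.04.

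**Figure D4:**
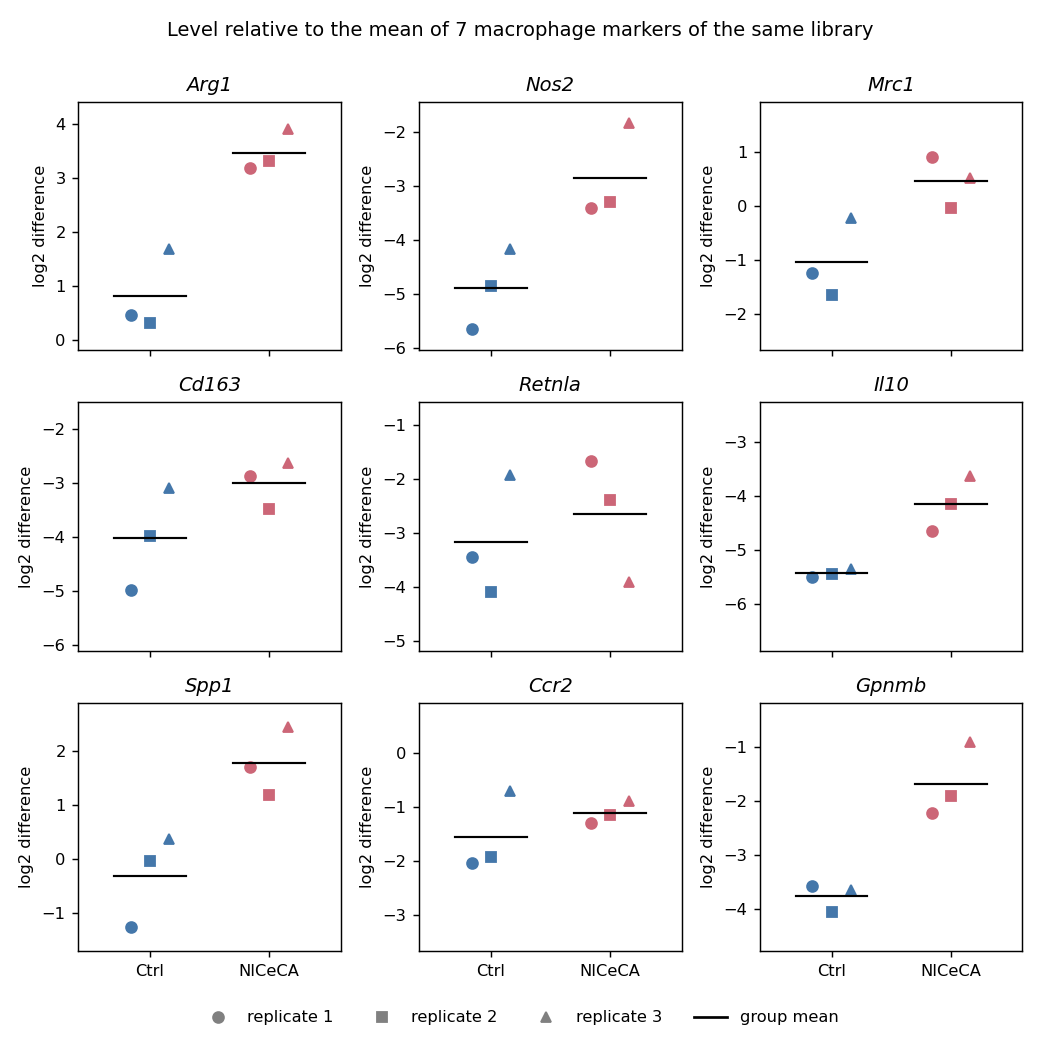
Level of each of the 9 genes minus the mean of 7 core macrophage markers in the same library, in log2(RPKM + 1), with the same height of axis in every panel and a line at each group mean. With these markers, Arg1, Nos2, Spp1, Gpnmb, Il10 and Mrc1 keep the 3 NICeCA libraries above the 3 Ctrl libraries, and Cd163, Retnla and Ccr2 do not.

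Wider lists of macrophage programs held genes called higher in each of the so-called classical, alternative and lipid-associated states. Over all tested rows, 5.88% were called higher and 7.68% lower. Of 20 tested genes of classical activation, 8 were called higher and none lower (median log2 fold change 0.67). The 5 with the smallest adjusted p were Fcgr1, the high-affinity receptor for IgG, with a log2 fold change of 1.52, Tnf (1.96), Ptgs2, the inducible cyclooxygenase (2.18), Il23a (1.83) and Il1b (1.70), at limma adjusted p from 0.0092 to 0.020. Tnf went from 17.3 ± 3.62 to 71.7 ± 22.2 RPKM and Il1b from 269 ± 109 to 835 ± 108 RPKM (SD, n = 3). Log2 fold changes were positive in 17 of the 20 genes. Cxcl9, Cd40, Ccl5 and Irf1, named after their values were seen, were not called. They had log2 fold changes of -0.22, -0.34, -0.35 and 0.02 (limma adjusted p = 0.64, 0.34, 0.20 and 0.94).

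Of 23 tested genes of alternative activation, 6 were called higher and 1 lower (median 0.43). Mmp9, a gelatinase that neutrophils also store, rose from 6.63 ± 3.02 to 65.3 ± 25.9 RPKM (SD, n = 3), by 3.10 ± 0.38 on the log2 scale (SE, limma adjusted p = 0.011). F13a1, a subunit of coagulation factor XIII (1.75), Vegfa, the vascular growth factor (1.26), and Il1rn, the antagonist of the interleukin 1 receptor (1.73), were called higher at limma adjusted p of 0.011, 0.025 and 0.028. Ppargc1b, a coactivator of mitochondrial genes, was called lower (-0.66, 0.031). The 2 other genes called higher were Egr2 (1.15, 0.038), a transcription factor, and Clec10a (0.95, 0.037), a lectin and paralog of Mgl2. Chil3, Ccl24 and Mgl2, named with these 2 after their values were seen, were not called and had log2 fold changes of 1.61, 2.35 and 0.43 (limma adjusted p = 0.11, 0.098 and 0.74). The row of Chil3 carries its older name Chi3l3.

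Of 19 tested genes of lipid-associated macrophages, 9 were called higher and none lower (median 0.64). Plin2, which coats lipid droplets, rose from 123 ± 18.9 to 381 ± 30.0 RPKM (SD, n = 3), by 1.63 ± 0.15 on the log2 scale (SE, limma adjusted p = 0.0083). Ctsl, cathepsin L (1.5), Fabp5, a fatty acid carrier (2.00), Hmox1, heme oxygenase 1 (1.98), and Lgals3, galectin 3 (1.49), were called at limma adjusted p from 0.0083 to 0.011. Trem2 and Apoe, which define this state in many tissues and were named after their values were seen, had log2 fold changes of 0.08 and -0.51 (limma adjusted p = 0.86 and 0.41). Neutrophils also express Il1b, Tnf, Ptgs2 and Il1rn, and the neutrophil markers were higher in each NICeCA library, with a part in these lists that was not tested. Across the partner and program lists, 36 of 119 tested genes were called higher and 2 lower, beside 5.88% and 7.68% of all tested rows. Of these 36, 12 were still called without NICeCA replicate 1 and 2 without NICeCA replicate 2. Calls fell across the whole table in these fits, to 0.727% and 0.138% of tested rows called higher. All 36 kept a positive log2 fold change in both fits.

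**Figure D5:**
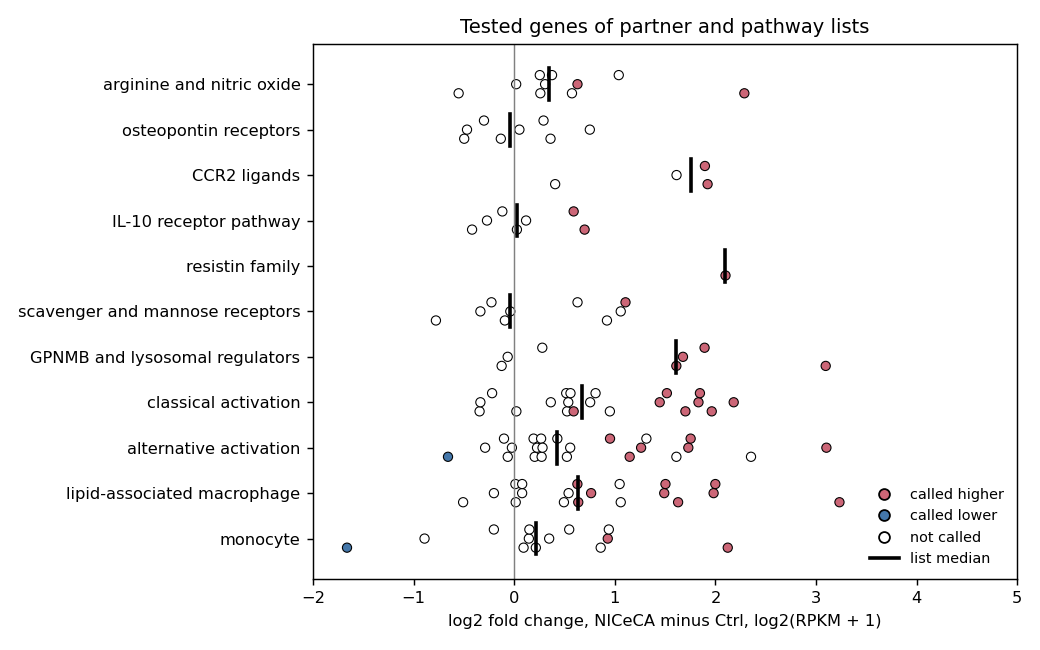
Log2 fold change, NICeCA minus Ctrl, of each tested gene in 11 lists around the 9 genes, which are themselves left out. Red points were called higher, blue ones lower, and bars mark list medians, which run from -0.04 for the osteopontin receptors and the scavenger receptors to 2.10 for the 1 tested gene of the resistin family.

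Rows with the nearest profile over the 6 libraries were found by the root mean square difference of log2(RPKM + 1) after subtracting the mean of each row. For Arg1 they were Bnip3 (difference 0.17), a protein of mitochondrial turnover, and Tnfrsf9 (0.20), the receptor 4-1BB. For Nos2 they were Ero1l (0.15), an oxidase of the endoplasmic reticulum, and Slc2a1 (0.16), the glucose transporter GLUT1, which was also the second for Spp1 (0.23) after Hyal1 (0.22), a hyaluronidase. Il10 was nearest to Sertad1 (0.085) and Smad6 (0.092), and Gpnmb to Igfbp3 (0.17) and Plk2 (0.20). Mrc1 was nearest to Amica1 (0.23) and Gm10684 (0.26), and Cd163 to Qpct (0.24) and Gzma (0.25). Ccr2 had close neighbours in Plbd1 (0.074) and C3 (0.081). Retnla had none as close: the first was Mgl2 (0.56), a lectin that marks alternatively activated macrophages, with 5.63, 3.94 and 29.3 RPKM in Ctrl and 39.6, 8.83 and 5.06 RPKM in NICeCA libraries, and the second Car4 (0.58). With 6 libraries and 12320 rows, some rows lie near any profile, and these distances are a description.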

How the data were processed

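The authors deposited 1 RPKM value per library and row, computed without pooling from rRNA-depleted paired-end libraries. The submitters' processing notes name TopHat2 and mm9, but the positions of all 9 genes overlap their RefSeq genes in GRCm38, which is the build used here. The sources used here do not name the counting tool. RPKM multiplied by row length was a whole multiple of 1 step for 100.0% of values under 1000 reads (within 0.05 of a step), which gave 27793301 to 30769916 reads on RefSeq rows per library. The 33353 FANTOM3 rows cover the same exons and were left out.

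Libraries were grouped by their titles. Log2(RPKM + 1) of RefSeq rows with a mean of at least 1 RPKM was compared with limma 3.58.1 in R 4.3.3 (mean-variance trend, two-sided, Benjamini-Hochberg adjustment). Fold changes on that scale understate changes of low genes. The exact permutation test has 20 assignments. Symbols missing from the table were matched through RefSeq synonyms. On simulated data with 12302 genes tested, 59% of 2-fold and 90% of 4-fold changes were recovered, and 14 unchanged genes were called. With no gene changed, 0 were called. The simulation drew each gene independently and placed changes only in rows above a minimum mean. Shifts that many genes share within a library, such as a changed mixture of cells, were not simulated. These rates therefore need not hold for the real libraries. Alternatives were a replicate block, other scalings, filters, pseudocount and variance model, limma voom, and leaving out each library. From each list, up to 5 called genes with the smallest adjusted p were named, with partners of the 9 genes given whether called or not. Some list genes are not reported here and were left out of every list value. The 9 genes and the lists were chosen with earlier results of these data known.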

Additional observations from a re-analysis of the deposited data

How the results depend on the processing

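The 5 calls among the 9 genes depended on which libraries were used: 0 to 5 of the 9 were called when 1 library was left out, 1 without NICeCA replicate 1 and 0 without NICeCA replicate 2. Leaving out 1 library gave 17 to 911 rows called higher and 1 to 832 lower, beside 725 and 946 with all 6. Rows called higher numbered 327 with the replicate block, 446 with quantile normalization and 260 with no filter. Rows called lower numbered 209, 325 and 105 in the same fits and 579 with a mean of at least 5 RPKM. Of all calls, 43.4% were higher as reported, 58.0% with a trimmed mean of log ratios, 57.8% with quantile normalization and 54.7% with limma voom. The cause was not tested.

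The sign of 2 genes that were not called changed: Retnla to -0.32 without Ctrl replicate 2 and -0.51 without NICeCA replicate 1 (range over left-out libraries -0.51 to 1.14), and Ccr2 to -0.12 with quantile normalization, -0.10 without Ctrl replicate 2 and -0.00040 without NICeCA replicate 1 (range -0.10 to 0.50). The methods describe the mice as pairs, but no source used here says which Ctrl mouse belonged to which NICeCA mouse, so pairing other than by number was not tested. Deviations from the group means correlated at 0.12, -0.34 and -0.18 between same-numbered libraries, and between -0.34 and 0.44 over all combinations, so that the numbers were not taken as pairs. With the replicate block the same 5 genes were called. Arg1, Nos2 and Gpnmb were called in 8 of 8 fits on all libraries and Il10 in 7 of 7, as its mean was under 5 RPKM, while Spp1 was called in 7 of 8. Relative to the macrophage markers, Il10 was higher by 0.81 in place of 1.29 with the whole marker list, and the separation of the Mrc1 groups was lost. An edgeR test on recovered reads was planned and not run, since the deposited unit is RPKM.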

Other observations

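Among 13 tested monocyte genes, 2 were called higher and 1 lower in NICeCA libraries (median log2 fold change 0.21). Cx3cr1, the fractalkine receptor of patrolling monocytes and resident macrophages, stood at 14.3, 20.4 and 15.6 RPKM in Ctrl tumors and at 3.26, 6.48 and 4.38 RPKM in NICeCA tumors. The groups did not overlap, and it fell by 1.66 on the log2 scale (standard error 0.22, limma adjusted p = 0.011), a call made in each alternative fit that was run. Nr4a1, Ace, Spn and Treml4 of the same list were not called, and their groups overlapped (log2 fold changes 0.09, 0.35, -0.20 and 0.15). Whether fewer patrolling monocytes were captured was not tested. F10, coagulation factor X, rose from 18.5 ± 14 to 71.8 ± 10.3 RPKM (SD, n = 3), by 2.12 on the log2 scale (limma adjusted p = 0.028). Cd177, a surface protein of neutrophils, was called higher with a log2 fold change of 0.93 (limma adjusted p = 0.044). Ly6c2, which marks inflammatory monocytes, was at 24.7, 26.2 and 46.2 RPKM in Ctrl and 34.0, 52.1 and 54.2 RPKM in NICeCA libraries (0.55, limma adjusted p = 0.19).

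Of the whole macrophage marker list, Cd14 rose from 593 ± 125 to 1142 ± 84.8 RPKM, Cd68 from 143 ± 8.88 to 242 ± 26.2 RPKM and Itgam from 113 ± 25.1 to 194 ± 40.1 RPKM (SD, n = 3, limma adjusted p = 0.026, 0.022 and 0.048). Pf4, a chemokine of platelets that macrophages also make, rose from 130 ± 37.1 to 1017 ± 119 RPKM (limma adjusted p = 0.0069). Cd74, the invariant chain of MHC class II, fell from 1139 ± 293 to 522 ± 168 RPKM (limma adjusted p = 0.044).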
